A study of Mus musculus with 14 samples.

Results

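Fibronectin and the proteins of elastic fibres were represented by 10 genes, namely Fn1, Eln, Fbn1, Fbln1, Fbln2, Fbln5, Mfap4, Mfap5, Emilin1 and Efemp2. They were taken by symbol from the 42396 genes listed in each of 2 count tables, and all 10 were found in both. Their RNA was measured by bulk RNA-seq in 14 whole-heart libraries of female FS6KD mice. FS6KD mice carry a heart-dominant knockdown of Ndufs6, a subunit of respiratory complex I, made by a gene trap on a mixed C57BL/6J and 129/Ola background. All control hearts carried this knockdown as well, so no heart with normal Ndufs6 was among them. In the knockout experiment, 4 Atf3+/+FS6KD hearts and 4 Atf3-/-FS6KD hearts were taken at 12 weeks. The Atf3-/- mice descended from intercrossed founders with a CRISPR-Cas9 deletion in Atf3, which encodes a stress-induced transcription factor, and the deletion is inherited by every cell type rather than limited to heart muscle. In the AAV experiment, 3 libraries were labelled MyoAAV2-shCtrl and 3 MyoAAV2-shAtf3. The sources used here do not say that these came from separate animals, and each is called a heart below. MyoAAV2 is an adeno-associated virus that favours muscle. It was injected into neonatal FS6KD mice and delivered either a control hairpin RNA (shCtrl) or a hairpin RNA meant to silence Atf3 (shAtf3). Tissue was taken at 12 weeks, which can be read as the time after injection. The comparisons ask how loss or knockdown of Atf3 alters the heart under a complex I defect.

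Elastic fibres are built outside the cell in steps. Fibronectin is laid down first as a network on which fibrillin microfibrils and other matrix proteins assemble. Secreted tropoelastin then gathers on the microfibrils, fibulins guide its deposition, and lysyl oxidases cross-link it into elastin. In the heart these proteins are made mainly by fibroblasts and by smooth muscle cells of vessels, and fibronectin also by endothelial cells. The 10 genes hold the scaffold (Fn1), the elastic core (Eln), the microfibril and its associated proteins (Fbn1, Mfap4, Mfap5), and proteins at the interface of core and microfibril (Fbln1, Fbln2, Fbln5, Emilin1 and Efemp2, which encodes fibulin-4).

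Promoters of 6 of the 10 genes were matched by symbol in RefSeq (GRCm38.p6), as windows of 250 bases before to 50 bases after an annotated start. Since the fold changes of all 10 genes had the same sign within each experiment, the windows were searched on both strands for motifs of factors tied to Atf3 or to matrix genes. Atf3 is a bZIP factor of the ATF/CREB family that binds the cyclic AMP response element TGACGTCA (CRE) and AP-1 sites. Neither the CRE nor the AP-1 site TGANTCA was present in any of the 10 windows of these 6 genes, against 1.79% and 7.81% of all 32851 windows of this length. The ATF core site TGACG, which is also part of the CRE, was present in 20.8% of all windows and, among the 6 genes, in both windows of Fbln5. The SMAD element CAGAC stood in 6 of the 10 windows, from 4 genes (49.6% of all windows), and the GC box GGGCGG in 7 of the 10, from 5 genes (35.7% of all windows). Windows of the same gene can share bases, so they are not separate observations. The TATA box TATAAA (13.6% of all), the MCAT element CATTCC (14.7%) and the SMAD box GTCTAGAC (0.213%) were in none of the 10 windows. A match is a string of letters and not a shown binding site, and an absent string says nothing about the factor.

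Both Fbln5 windows are shown because they carried the ATF core site, and 1 Fbln1 window because it carried only SMAD elements and GC boxes. Each reads 5′ to 3′ on the strand of the gene, and capitals mark an ATF core site, a SMAD element or a GC box on either strand. They lie at chr12:101819070-101819369 (minus strand), chr12:101818435-101818734 (minus strand) and chr15:85205758-85206057 (plus strand).
Fbln5, upstream start: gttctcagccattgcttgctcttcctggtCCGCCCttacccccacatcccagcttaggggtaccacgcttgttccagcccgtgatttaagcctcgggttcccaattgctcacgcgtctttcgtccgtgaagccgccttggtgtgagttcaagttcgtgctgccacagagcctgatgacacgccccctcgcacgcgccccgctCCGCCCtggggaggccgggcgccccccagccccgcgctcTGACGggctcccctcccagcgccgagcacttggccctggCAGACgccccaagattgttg
Fbln5, downstream start: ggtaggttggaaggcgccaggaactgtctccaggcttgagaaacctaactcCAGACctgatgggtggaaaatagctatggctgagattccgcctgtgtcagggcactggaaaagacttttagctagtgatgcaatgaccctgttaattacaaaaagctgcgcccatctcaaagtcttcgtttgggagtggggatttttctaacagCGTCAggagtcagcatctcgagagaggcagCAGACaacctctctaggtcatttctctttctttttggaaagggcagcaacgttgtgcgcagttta
Fbln1: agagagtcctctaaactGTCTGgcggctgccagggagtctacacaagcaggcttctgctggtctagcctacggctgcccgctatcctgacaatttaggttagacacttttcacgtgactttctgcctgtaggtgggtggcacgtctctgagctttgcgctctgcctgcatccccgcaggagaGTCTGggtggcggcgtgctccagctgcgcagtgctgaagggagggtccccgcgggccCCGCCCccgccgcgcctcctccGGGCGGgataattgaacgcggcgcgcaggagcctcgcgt

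Library totals ran from 33914931 to 134920825 counts among the 8 knockout libraries and from 30085432 to 40534913 among the 6 AAV libraries. In both genotypes replicates 3 and 4 held at least 112904389 counts and replicates 1 and 2 at most 42409691. The column names of the AAV table read opposite to the sample labels. Groups follow the labels, and the words labelled shCtrl and labelled shAtf3 mark that every AAV direction depends on them. Atf3 counts did not settle this. Atf3 read 12.1 to 21.2 CPM in the libraries labelled shAtf3 and 10.1 to 14.1 CPM in those labelled shCtrl (edgeR adjusted p = 0.420). Knockout hearts (Atf3-/-FS6KD) read 14.3 to 37.6 CPM of Atf3 and Atf3+/+FS6KD hearts 6.35 to 25.7 CPM (edgeR adjusted p = 0.480). Counts per gene do not separate the deleted stretch of Atf3 from the rest, so this level does not check the genotype. Ndufs6, knocked down in all groups, read 2.33 to 3.79 CPM. Markers of cardiomyocytes were the most abundant of all cell type lists, with summed levels of 42346 to 62550 CPM, as the heart label implies. Summed atrial and epicardial markers were at most 3.12 and 8.58 CPM, mostly from Myl4 and Wt1, and Sln, Upk3b, Msln and Krt19 were at 0 in some libraries of both experiments. Upk3b and Msln reached at most 1.57 and 1.63 CPM, in a library labelled shAtf3.

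All 10 genes were well covered, with 317 to 21498 deposited counts per gene and library. CPM below are counts scaled to library size with TMM factors, which centre the libraries on their shared genes. Between genes, levels were compared per kilobase of exon. The order of the means per kilobase in Atf3+/+FS6KD hearts was Mfap4, Fbln1, Fbln2, Mfap5, Fbn1, Emilin1, Fn1, Fbln5, Eln and Efemp2. It ran from 27.6 ± 13.3 (SD, n = 4) CPM per kb for Mfap4 to 2.80 ± 0.277 for Efemp2, and the ranges of all neighbours in this order overlapped. Atf3-/-FS6KD hearts showed the same order, and only Fbln1 and Fbln2, and Eln and Efemp2, were neighbours without overlap. In hearts labelled shCtrl, Mfap4 stood first at 41.2 ± 5.62 (SD, n = 3) CPM per kb, without overlap with Fbln1 at 31.5 ± 5.51. In hearts labelled shAtf3, Mfap4 came only after both fibulins at 18.5 ± 2.23 CPM per kb, with Fbln2 at 20.6 ± 0.967 and Fbln1 at 19.7 ± 1.41, and the ranges of these neighbours overlapped. Eln and Efemp2 were the lowest of the 10 per kilobase in all 4 groups.

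**Figure D1:**
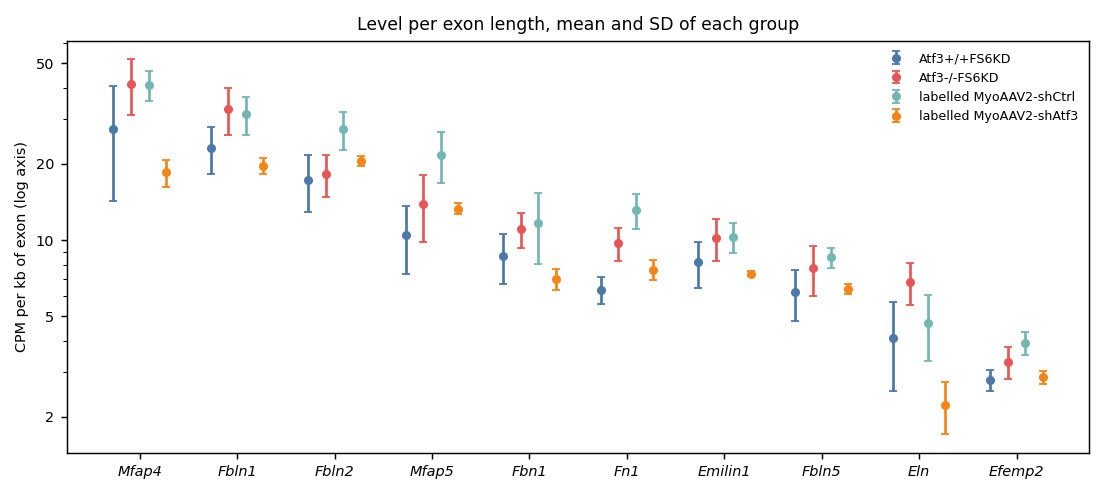
TMM-normalised CPM per kilobase of exon (log axis) for the 10 genes, ordered by their mean over the 4 groups, with points for group means and bars for the SD (n = 4 per knockout group, n = 3 per AAV group). Mfap4 was first in every group but the one labelled shAtf3, where its mean was 18.5 CPM per kb, and Eln and Efemp2 were lowest in each.

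Fn1 encodes fibronectin, the scaffold protein that integrins on the cell surface pull into fibrils, and lies at chr1:71585520-71653200 (minus strand; GENCODE, GRCm38.p6, as for the other genes). In Atf3+/+FS6KD hearts it read 86.4, 75.4, 65.3 and 69.8 CPM, and in Atf3-/-FS6KD hearts 105, 125, 131 and 93.3 CPM. Every knockout heart was above every control heart, and Fn1 was the only one of the 10 genes for which this held. With the viral vectors, Fn1 read 182, 137 and 142 CPM in hearts labelled shCtrl and 80.4, 91.5 and 96.2 CPM in those labelled shAtf3. The groups did not overlap, and labelled shCtrl replicate 1 was the highest of all 14 libraries. Fn1 thus lay above its controls in every Atf3-/-FS6KD heart and below them in every heart labelled shAtf3.

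Eln encodes tropoelastin, the precursor of the elastic core, at chr5:134702593-134747323 (minus strand). It read 37.3, 17.8, 29.9 and 48.3 CPM in Atf3+/+FS6KD and 57.2, 43.3, 68.5 and 52.1 CPM in Atf3-/-FS6KD hearts. Atf3+/+FS6KD replicate 2 was the lowest and replicate 4 of the same group reached into the range of the knockout hearts. Eln read 50.6, 32.9 and 30.4 CPM in hearts labelled shCtrl and 15.4, 15.8 and 22.9 CPM in those labelled shAtf3. The groups did not overlap, and labelled shCtrl replicate 1 stood apart above. The Eln counts were not whole in 10 of 14 libraries. Eln shares exonic bases with Gm30003 on the opposite strand, a gene that read 0.237 to 0.734 CPM.

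Fbn1 encodes fibrillin-1, the backbone of the microfibril, at chr2:125300594-125507993 (minus strand). It read 129, 72.3, 109 and 110.0 CPM in Atf3+/+FS6KD and 142, 124, 159 and 111 CPM in Atf3-/-FS6KD hearts, and the groups overlapped. Under the viral vectors it read 193, 117 and 116 CPM under the label shCtrl and 75.7, 89.1 and 90.9 CPM under shAtf3, with no overlap and with labelled shCtrl replicate 1 far above the rest. Mfap4 encodes a microfibril-associated protein that binds fibrillin and tropoelastin, at chr11:61485431-61488900 (plus strand). It read 45.1, 27.7, 88.3 and 51.0 CPM in Atf3+/+FS6KD hearts, the widest spread relative to the mean of any group and gene among the 10, and 64.8, 90.3, 102 and 62.2 CPM in Atf3-/-FS6KD hearts, with control replicate 3 inside the range of the knockout hearts. Mfap4 read 73.5, 91.7 and 72.4 CPM under shCtrl and 31.5, 35.3 and 40.04 CPM under shAtf3, a gap wider than the spread of either group. Mfap5 encodes MAGP-2, a microfibril glycoprotein, at chr6:122505845-122529290 (plus strand). It read 38.7, 29.7, 53.1 and 28.7 CPM in Atf3+/+FS6KD and 42.4, 64.8, 59.8 and 33.1 CPM in Atf3-/-FS6KD hearts, which overlapped. Under the label shCtrl it read 94.0, 81.4 and 58.7 CPM and under shAtf3 48.2, 50.01 and 45.2 CPM, which did not overlap.

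Fbln1 encodes fibulin-1, which binds fibronectin and elastin, at chr15:85205949-85286535 (plus strand). It read 94.2, 82.3, 132 and 96.2 CPM in Atf3+/+FS6KD and 110, 151, 183 and 133 CPM in Atf3-/-FS6KD hearts, and only control replicate 3 reached into the knockout range. Under shCtrl it read 137, 162 and 114 CPM and under shAtf3 83.4, 93.1 and 81.6 CPM, with no overlap. Fbln2 encodes fibulin-2, at chr6:91212455-91272540 (plus strand), and was the flattest of the 10 in the knockout experiment. It read 77.5, 96.4, 138 and 129 CPM in Atf3+/+FS6KD and 97.6, 118, 146 and 102 CPM in Atf3-/-FS6KD hearts. Under shCtrl it read 199, 183 and 142 CPM and under shAtf3 138, 126 and 130.2 CPM, a gap of only a few CPM between labelled shCtrl replicate 3 and labelled shAtf3 replicate 1. Fbln5 encodes fibulin-5, which tethers tropoelastin to cells and microfibrils, at chr12:101746565-101819055 (minus strand). It read 44.2, 33.0, 56.0 and 38.6 CPM in Atf3+/+FS6KD and 49.8, 70.1, 52.9 and 41.6 CPM in Atf3-/-FS6KD hearts, which overlapped. Under shCtrl it read 63.2, 60.9 and 53.0 CPM and under shAtf3 42.6, 43.4 and 46.4 CPM, which did not.

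Emilin1 encodes a glycoprotein at the border of elastin and microfibrils, at chr5:30913402-30921277 (plus strand). It read 35.6, 31.2, 45.4 and 49.2 CPM in Atf3+/+FS6KD and 43.0, 46.7, 64.4 and 47.8 CPM in Atf3-/-FS6KD hearts, which overlapped. Under shCtrl it read 53.1, 56.0 and 42.9 CPM and under shAtf3 37.0, 35.5 and 36.4 CPM, with hardly any spread in the latter group. Efemp2 encodes fibulin-4, which brings lysyl oxidase to tropoelastin, at chr19:5473954-5482517 (plus strand), and was the least abundant of the 10 in CPM. It read 11.3, 10.4, 11.5 and 9.20 CPM in Atf3+/+FS6KD and 11.9, 13.5, 14.3 and 10.3 CPM in Atf3-/-FS6KD hearts, which overlapped. Under shCtrl it read 16.6, 14.2 and 13.7 CPM and under shAtf3 11.3, 10.1 and 11.1 CPM, which did not. Efemp2 overlaps exons of Mus81 (21.1 to 27.8 CPM) and Mfap4 those of Mapk7 (6.82 to 9.94 CPM), both on the opposite strand. Fn1 likewise overlaps Apol7d (0 to 0.0888 CPM), and Fbn1 overlaps Gm9913, for which no value was analysed here. Whether the counting used strand is not given, so reads from such shared bases could not be assigned with certainty, and Mus81 was more abundant than Efemp2.

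**Figure D2:**
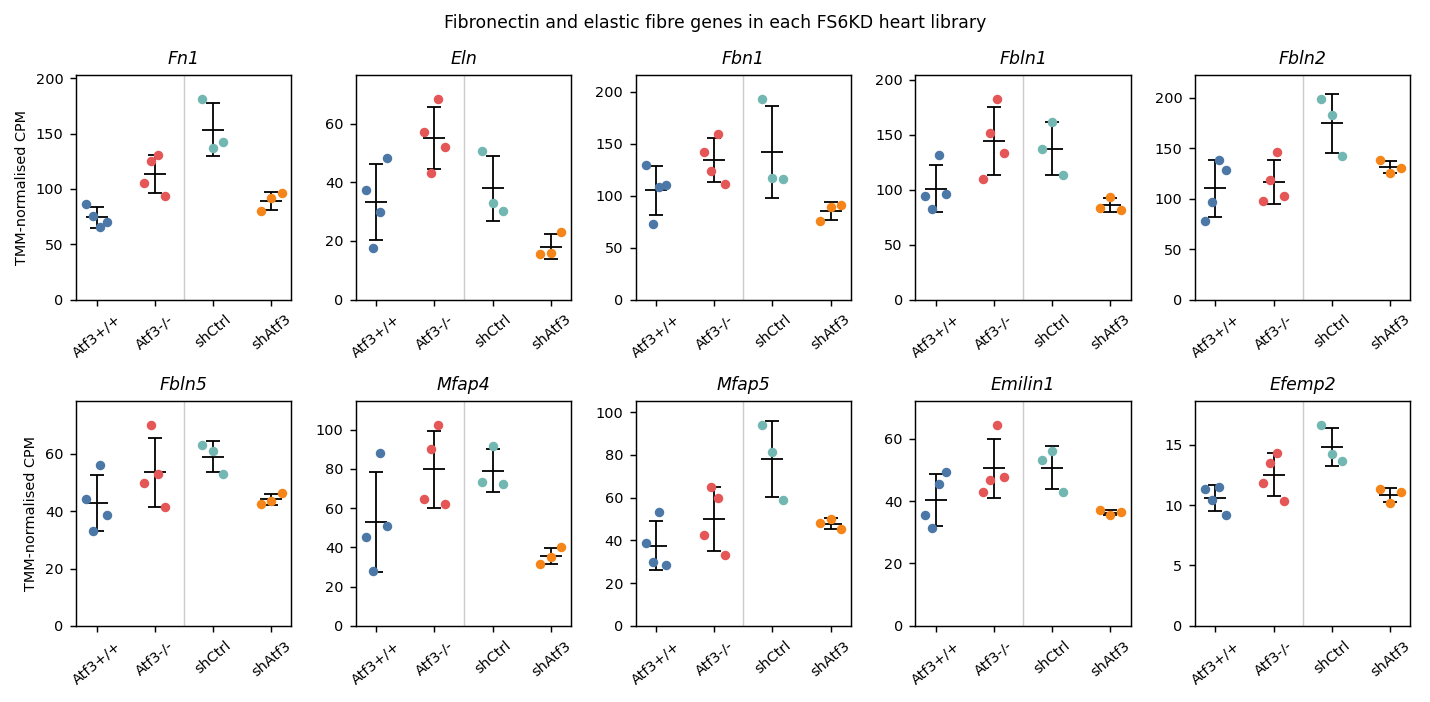
TMM-normalised CPM of each of the 10 genes (vertical axes from 0) in the 4 groups, with 1 point per library and the mean with SD in black. The points of labelled shAtf3 lay below those of labelled shCtrl for all 10 genes, and the points of Atf3-/-FS6KD lay above those of Atf3+/+FS6KD without overlap for Fn1.

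The knockout experiment asks what loss of Atf3 does to these genes in FS6KD hearts. The fitted log2 fold change (Atf3-/-FS6KD minus Atf3+/+FS6KD) was above 0 for all 10 genes, with a median of 0.38, but none of the 10 passed the test. Across all 15592 genes tested, 50.2% had a value above 0. The edgeR quasi-likelihood test with Benjamini-Hochberg adjustment called 0 genes (0.0%) at an adjusted p below 0.05, DESeq2 called 208 and limma-trend 0, and 1575 genes had an unadjusted p below 0.05 in edgeR. Of the 10, Fn1, Fbln1 and Eln had an unadjusted p below 0.05, and all 3 were higher, as were 5.41% of all genes. Fn1 was the 1 gene of the 10 that was higher without overlap, as were 3.08% of all genes. It went from 74.2 ± 9.11 to 114 ± 17.3 CPM (SD, n = 4 each), a log2 fold change of 0.61 (SE 0.12, edgeR adjusted p = 0.253). Fn1 was also the only one that DESeq2 called, at an adjusted p of 0.00123, where 0.686% of all genes were called higher. Eln followed with 0.73 (SE 0.27, edgeR adjusted p = 0.423) and Fbln1 with 0.51 (SE 0.18, edgeR adjusted p = 0.404). Among the other 7, the values ran from 0.07 for Fbln2 (SE 0.19) to 0.59 for Mfap4 (SE 0.31), with edgeR adjusted p from 0.533 to 0.921.

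The depth of the libraries divided the knockout experiment, and the groups were therefore also compared within replicates of like depth. In the shallower replicates 1 and 2 the median of the 10 log2 fold changes was 0.54 and all 10 were above 0. In the deeper replicates 3 and 4 it was 0.25, with 8 above 0 and 2 below. Fn1 stood at 0.51 (SE 0.13) in the shallower and 0.73 (SE 0.17) in the deeper pair. Mfap4 stood at 1.09 (SE 0.28) and 0.24 (SE 0.35), and Mfap5 at 0.65 (SE 0.24) and 0.18 (SE 0.40). Each of these fits held 2 hearts per group, and whether the effects differed between the pairs was not tested. The 2 genes below 0 in the deeper pair were Fbln2 (-0.11) and Fbln5 (-0.0035). None of these within-depth values passed the edgeR test, with adjusted p from 0.605 to 0.999.

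The AAV experiment asks the same of a muscle-directed knockdown. Its SDs and p-values rest on 3 libraries per group, which are not stated to come from separate animals. All 10 genes were lower in hearts labelled shAtf3 than in those labelled shCtrl, with a median log2 fold change of -0.69, and the groups did not overlap for any of them. Across the 15225 genes tested, 50.9% had a value below 0, 9.94% were lower without overlap, and 7.65% were lower with an unadjusted p below 0.05, as were all 10 here. After adjustment over all genes, 82 genes (0.539%) were called, 69 of them lower (0.453%), and 2 of the 10 were among the lower ones. Mfap4 fell to 0.449 of its labelled shCtrl level, from 79.2 ± 10.8 to 35.6 ± 4.29 CPM (SD, n = 3 each), a log2 fold change of -1.15 (SE 0.11, edgeR adjusted p = 0.0137). Fn1 fell to 0.581 of it, from 154 ± 24.3 to 89.3 ± 8.13 CPM, a log2 fold change of -0.78 (SE 0.11, edgeR adjusted p = 0.0299). Fbln1 missed the threshold narrowly at -0.68 (SE 0.12, edgeR adjusted p = 0.0503). Eln had nearly the fold change of Mfap4, at -1.07, but with a wider error (SE 0.21, edgeR adjusted p = 0.0772). The other 6 lay between -0.74 for Fbn1 (SE 0.18) and -0.41 for Fbln2 (SE 0.11), with edgeR adjusted p from 0.0659 to 0.187.

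**Figure D3:**
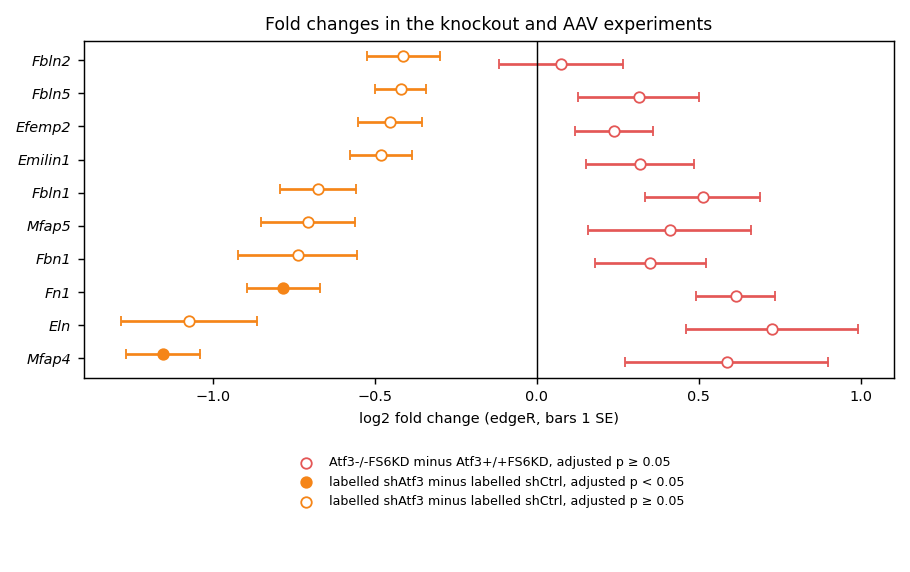
edgeR log2 fold changes of the 10 genes in the knockout (red) and AAV (orange) experiments, with bars of 1 SE and filled points at an adjusted p below 0.05. All 10 lay above 0 in the knockout and below 0 in the AAV experiment, and the filled points are Mfap4 (-1.15) and Fn1 (-0.78) in the AAV experiment.

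How many of the 10 were called in the AAV experiment depended on single libraries, while the direction did not. Without labelled shCtrl replicate 3, the lowest shCtrl library for 9 of the 10 genes, all 10 were called, and the share of all genes called lower rose to 1.7%. Without labelled shCtrl replicate 1 both Mfap4 and Fn1 were called again (0.218% of all genes called lower), and without replicate 2 Mfap4 alone (edgeR adjusted p = 0.0258, 0.0264% of all genes). Leaving out labelled shAtf3 replicate 1 or 2 left 0 called in edgeR, where all 10 were still lower at an unadjusted p below 0.05, as were 6.12% and 5.68% of all genes. Leaving out replicate 3 left Mfap4 (edgeR adjusted p = 0.0377, 0.0329% of all genes). DESeq2 on all 6 libraries called 9, all but Fbn1, with 1.55% of all genes called lower, and limma-trend called 3, with 0.473%. Under each library left out, all 10 stayed below 0. The log2 fold change ran from -1.25 to -1.04 for Mfap4, from -1.28 to -0.81 for Eln and from -0.86 to -0.45 for Fbn1. The smallest size of Eln and Fbn1 was that without labelled shCtrl replicate 1.

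**Figure D4:**
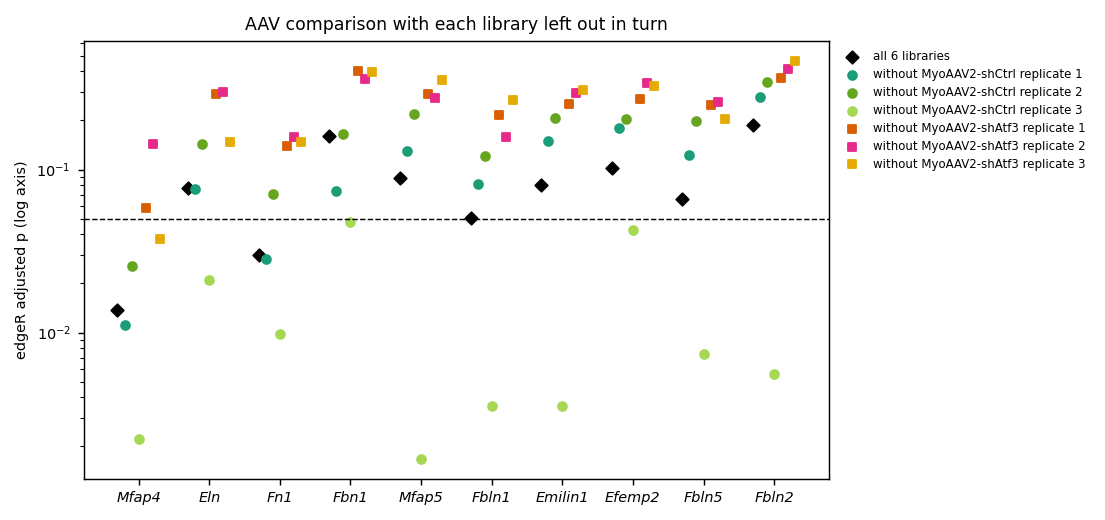
edgeR adjusted p (log axis) of the 10 genes in the AAV comparison with all 6 libraries (black diamonds) and with each library left out in turn (circles for shCtrl, squares for shAtf3), with a dashed line at 0.05. Without labelled shCtrl replicate 3 all 10 genes lay below the line, and without labelled shAtf3 replicate 2 none did.

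The effects in the 2 experiments were compared directly in a fit of all 14 libraries, as the knockout log2 fold change minus the AAV one. The difference was above 0 for all 10 genes and had an unadjusted p below 0.05 for 9, as did 9.41% of all 15708 genes in this direction. Of all genes tested, 26 (0.166%) were called, and Fn1 was the 1 among the 10, at 1.39 (SE 0.19, edgeR adjusted p = 0.0141). Without labelled shAtf3 replicate 1 or 2 this call was lost, at edgeR adjusted p of 0.0588 and 0.0640, with differences of 1.32 and 1.41. Eln had a greater difference of 1.79 (SE 0.40, edgeR adjusted p = 0.0862) and Mfap4 one of 1.73 (SE 0.41, edgeR adjusted p = 0.0874). Fbln2 had the smallest, 0.48 (SE 0.26, edgeR adjusted p = 0.378). All of these differences rest on the AAV labels. With the labels exchanged, as the column names read and as an alternative chosen after seeing the data, all 10 genes would be above 0 in both experiments. The difference in the same fit would then be below 0 for all 10, from -0.57 for Mfap4 to -0.11 for Fbln5, and -0.17 for Fn1 (SE 0.19). In that case edgeR would call 0 of all genes, with 643 at an unadjusted p below 0.05 and none of the 10 among them. Control hearts of the experiments were not alike either. Atf3+/+FS6KD hearts held 74.2 ± 9.11 CPM of Fn1 and labelled shCtrl hearts 154 ± 24.3 CPM, while Atf3-/-FS6KD hearts held 114 ± 17.3 CPM and labelled shAtf3 hearts 89.3 ± 8.13 CPM. The sequencing of the 2 experiments and their animals are separate, so these levels are given side by side and no difference between them was tested.

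Markers of fibroblasts, which make these proteins, were measured beside them. In bulk tissue, fewer cells of a type and less RNA per cell cannot be told apart. Of 8 fibroblast markers, all 8 were lower in labelled shAtf3 hearts, and their median log2 fold change was -0.39. Among them 7 had an unadjusted p below 0.05 (7.65% of all genes), 6 were lower without overlap (9.94%), and 1 was called (0.453%). This was Dpt, a small matrix protein of fibroblasts (-0.47, SE 0.07, edgeR adjusted p = 0.0299). Their summed level ran from 2839 to 3630 CPM under shCtrl and from 2383 to 2553 CPM under shAtf3, without overlap. In the knockout experiment 7 of 8 were above 0, with a median of 0.22 and none called by edgeR. At an unadjusted p below 0.05, 4 were higher (5.41% of all genes), and 1 was higher without overlap (3.08%). The sums of the 8 overlapped, at 2149 to 3189 CPM in Atf3+/+FS6KD and 2699 to 3246 CPM in Atf3-/-FS6KD hearts.

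Each of the 10 genes was then expressed relative to the mean log2 CPM of the 8 fibroblast markers in the same library. In the AAV experiment the median difference of the 10 shrank from -0.67 to -0.29, while all 10 remained below 0. The groups still did not overlap for 3 genes, Mfap4 (-0.77), Eln (-0.67) and Fn1 (-0.39), where 0.631% of all genes were lower without overlap on this scale. For Mfap4 the lowest labelled shCtrl ratio was -0.713 and the highest labelled shAtf3 ratio -1.193. The gap was narrow for Eln (-1.971 and -1.996) and Fn1 (0.084 and 0.070). At the other end, Fbln2 (-0.02), Fbln5 (-0.03), Efemp2 (-0.07) and Emilin1 (-0.09) lay close to 0 on this scale. The part of the marker differences in these values was not tested. After knockout the median shrank from 0.39 to 0.21, with 9 above 0, Fbln2 at -0.08 and no gene without overlap. Fn1 stood at 0.43 there, where its groups overlapped on this scale.

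**Figure D5:**
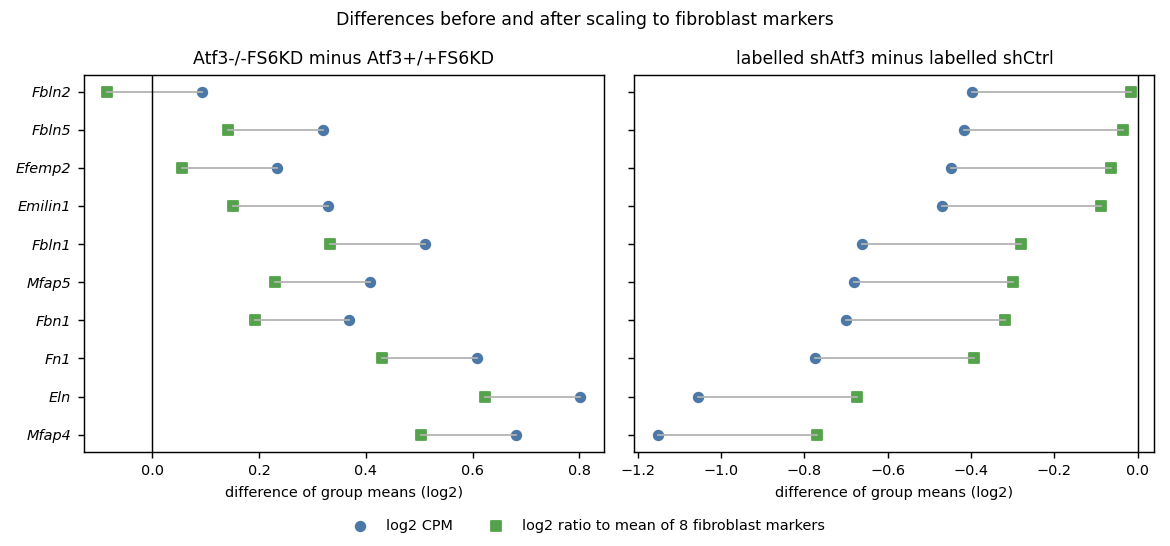
Difference of group means on the log2 scale for the 10 genes, as log2 CPM (circles) and as the log2 ratio to the mean of 8 fibroblast markers (squares), with the knockout experiment on the left and the AAV experiment on the right. In the AAV experiment Mfap4, Eln and Fn1 remained farthest below 0 after scaling (-0.77, -0.67 and -0.39), and Fbln2, Fbln5, Efemp2 and Emilin1 came close to 0.

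The smooth muscle list held members of both signs. Its median log2 fold change was -0.10 in the AAV and 0.04 in the knockout experiment, with 0 of 6 called by edgeR in either. At an unadjusted p below 0.05, 1 of 6 was lower in the AAV experiment (7.65% of all genes). In the knockout experiment 0 of 6 were at this threshold, where 5.41% of all genes were higher. Acta2, smooth muscle actin, stood at -1.07 in the knockout experiment (SE 0.49, edgeR adjusted p = 0.510), at 61.9 to 328 CPM in Atf3+/+FS6KD and 55.2 to 146 CPM in Atf3-/-FS6KD hearts. Relative to the 6 smooth muscle markers, the AAV median of the 10 genes was -0.53 with 6 genes lower without overlap (1.43% of all genes), and the knockout median was 0.46 with Fn1 alone higher without overlap (0.519% of all genes). Endothelial and pericyte markers lay at medians between 0.01 and 0.11 in both experiments. Macrophage markers had the sign of the 10 genes, at a median of -0.19 in the AAV experiment (6 of 6 below 0) and 0.29 in the knockout (6 of 6 above 0), while cardiomyocyte markers had medians of 0.13 (6 of 6 above 0) and -0.16 (5 of 6 below 0, with Actc1 at 0.47). None of these passed the edgeR test. At an unadjusted p below 0.05, 4 of 6 macrophage markers were lower in the AAV experiment (7.65% of all genes), and 3 were lower without overlap (9.94%). In the knockout experiment 2 of 6 were higher at this threshold (5.41%). Of 6 cardiomyocyte markers, 1 was higher in the AAV experiment (769 of all 15225 genes). In the knockout experiment 1 was higher (Actc1) and 1 lower (Tnnt2, 731 of all 15592 genes lower). Of 4 pericyte markers, 0 stood there in the AAV experiment and 1 was higher in the knockout. A list for activated fibroblasts, which secrete collagens and other matrix in a stressed heart, had a median of -1.10 in the AAV experiment, against -0.69 for the 10 genes. All 6 were below 0 there, 5 of them without overlap (9.94% of all genes) and with an unadjusted p below 0.05 (7.65%). Of these, 4 passed the test (0.453% of all genes called lower), namely Col3a1 (-1.05), Col1a1 (-0.84), Postn (-1.14) and Comp (-1.72), with edgeR adjusted p between 0.0100 and 0.0328. The other was Cthrc1, a secreted protein of activated fibroblasts, at -1.76 and at most 2.46 CPM (SE 0.37, edgeR adjusted p = 0.0945). Acta2 of the same list stood at -0.10 (edgeR adjusted p = 0.877). After knockout the median was 0.52 and none of the 6 passed, with 3 higher at an unadjusted p below 0.05 (5.41% of all genes), 3 higher without overlap (3.08%) and 5 above 0, the exception being Acta2 at -1.07.

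Further genes of the elastic fibre were looked at as a list of 24, of which 23 were tested. It holds other fibrillins and fibulins, lysyl oxidases, and proteins that tie latent TGF-β to microfibrils. Of the 23, 18 were below 0 in the AAV experiment, with a median log2 fold change of -0.27. There 11 were lower at an unadjusted p below 0.05 (7.65% of all genes), 9 were lower without overlap (9.94%), and 4 fell after adjustment (0.453%). Ltbp2, a latent TGF-β binding protein family member that sits on microfibrils, fell from 63.3 to 24.6 CPM (-1.36, SE 0.18, edgeR adjusted p = 0.0293). Adamtsl2, a secreted glycoprotein that binds fibrillin-1 and LTBP1, fell from 58.9 to 32.0 CPM (-0.88, SE 0.10, edgeR adjusted p = 0.0235). Loxl2, a lysyl oxidase-like cross-linking enzyme, and Ltbp3, which tethers latent TGF-β, fell by 0.65 and 0.47 on the log2 scale (edgeR adjusted p = 0.0299 each). After knockout 18 of the 23 were above 0, with a median of 0.25, and 0 were called by edgeR. At an unadjusted p below 0.05, 4 were higher (5.41% of all genes) and 1 lower (731 of all 15592 genes). Without overlap, 3 were higher (3.08% of all genes). The smallest p there was that of Lox, the enzyme that cross-links elastin and collagen. It read 3.47 to 9.08 CPM in Atf3+/+FS6KD and 10.4 to 18.3 CPM in Atf3-/-FS6KD hearts, without overlap (log2 fold change 1.11, SE 0.28, edgeR adjusted p = 0.317). Lox stood at -1.21 in the AAV experiment (SE 0.32, edgeR adjusted p = 0.178).

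Receptors through which cells hold fibronectin formed a list of 10. Of these, 9 were below 0 in the AAV experiment and 2 fell, where 0.453% of all genes did, and no others were at an unadjusted p below 0.05. Itgb5, the β5 integrin subunit, fell from 208 to 150.1 CPM (-0.47, SE 0.07, edgeR adjusted p = 0.0299). Sdc4, the heparan sulfate proteoglycan syndecan-4, fell from 19.6 to 13.2 CPM (-0.57, SE 0.09, edgeR adjusted p = 0.0328). The median of the 10 receptors was -0.18, against -0.69 for the 10 matrix genes. After knockout the median was 0.05 and 0 were called by edgeR, with 1 higher at an unadjusted p below 0.05 (5.41% of all genes). This was Itgb3, the β3 integrin subunit, at 2.12 to 3.32 CPM in Atf3+/+FS6KD and 3.33 to 5.17 CPM in Atf3-/-FS6KD hearts (0.71, SE 0.18, edgeR adjusted p = 0.319).

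The 10 genes also varied together among hearts of the same group. Each log2 CPM was taken as its deviation from the mean of its own group, over 14 libraries. All 45 pairs of the 10 genes had a positive Pearson r, with a median of 0.45. The lowest was 0.0083 for Fn1 and Fbln2, and the highest 0.889 for Fbln5 and Mfap5. Against the mean of the other 9, r was highest for Mfap4 (0.777) and lowest for Fn1 (0.350). Both ends of this order depended on a few libraries. Without the 2 libraries farthest from the median, r was highest for Fbln1 (0.742, with Mfap4 at 0.625) and lowest for Eln, which went from 0.459 to 0.210, with Fn1 at 0.317. Atf3+/+FS6KD replicate 2 and Atf3-/-FS6KD replicate 4 lay lowest against their groups, at -0.36 and -0.24 on the log2 scale on average over the 10 genes. Libraries share their composition and depth across genes, so these values are a description of the libraries and carry no test.

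The genes outside the 10 whose within-group deviations ran closest to the mean of the 10 were Scml4 (r 0.940, rho 0.903), Sephs2 (0.939, 0.921), Dffa (0.939, 0.899), Vcan (0.929, 0.846) and Col8a2 (0.928, 0.934), the highest of 13202 genes ranked over the 14 libraries. Without the 2 libraries farthest from the median, r was 0.867 to 0.950 for these 5. Vcan encodes versican, a matrix proteoglycan, and Col8a2 a short-chain collagen. Of the 5, Col8a2 was called in the AAV experiment (log2 fold change -1.58, edgeR adjusted p = 0.0137), while Sephs2 and Dffa stood at 0.16 and 0.24 (edgeR adjusted p = 0.375 and 0.336), opposite in sign to the 10 genes.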

How the data were processed

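Whole-heart RNA was extracted with an RNeasy fibrous kit, and libraries were made with a TruSeq Stranded mRNA kit. Reads of the knockout hearts were single-end, were mapped to GRCm38.p6 and were counted with featureCounts 2.0.0, as the study describes. Per the labels, the same build and counter apply to all 14 libraries. The aligner, the annotation and the strand setting are not given in the sources used here. The tables deposited by the authors hold 1 estimated count per gene and library, without normalization or pooling. Of the 42396 values of a library, 19.3% to 24.4% were not whole (no tolerance), and all were rounded to whole numbers before testing. The design had assumed raw counts, and its count tests were kept. No sample column was left out. Of the listed genes, 2379 carry another symbol with an added number and were read as copies. None of the 10 genes has such a copy.

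Libraries were grouped by their labels. A gene was tested if any library of the comparison held more than 1 CPM of it. Tests were two-sided quasi-likelihood F-tests of edgeR 4.0.16 in R 4.3.3 with TMM factors, Benjamini-Hochberg adjusted over all genes tested with a threshold of 0.05, within each experiment and, for the difference of the experiments, over all 14 libraries. The study itself used an unadjusted threshold. All 10 genes passed the filter in every fit. DESeq2 1.42.0, limma-trend 3.58.1, other scalings, no filter, summed copies, a replicate block, depth batches and leaving out each library were tried as alternatives. The edgeR code was tested on simulated data. Log2 CPM used a prior count of 2. Exon lengths are unions of GENCODE exons. The study describes the knockout libraries as biological replicates, and the sources used here do not say this of the AAV libraries. The p-values weigh group differences against the spread between these libraries, which for the AAV groups need not be a spread between animals. Pairs within a group differed by a chi-square per gene of 7.93 to 125, beyond sampling noise. The 10 genes and the marker, partner and receptor lists were chosen with earlier results of these data known. All 10 genes are named. Of the partner and receptor lists, called genes are named, and otherwise those with the smallest p. Genes most like the 10 were ranked by Pearson r among those with a mean log2 CPM above 1 in both experiments. Of the other marker lists, endocardial and erythrocyte markers had medians of -0.15 and -0.20 in the knockout and 0.11 and 0.03 in the AAV experiment, and none was called by edgeR. At an unadjusted p below 0.05 in the knockout experiment, 1 of 3 endocardial markers was higher (5.41% of all genes) and 1 lower (731 of all 15592 genes). Erythrocyte markers had 0 of 4 there, and both lists had 0 in the AAV experiment.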

Additional observations from a re-analysis of the deposited data

Results flagged for a closer look

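The effect on Fn1 differed between the experiments by the test of the difference itself. The knockout log2 fold change minus the AAV one was 1.39 (SE 0.19, edgeR adjusted p = 0.0141, 14 libraries). All 4 Atf3-/-FS6KD hearts lay above the 4 Atf3+/+FS6KD hearts, and all 3 hearts labelled shAtf3 lay below the 3 labelled shCtrl. The call was lost without labelled shAtf3 replicate 1 or 2 (edgeR adjusted p = 0.0588 and 0.0640). Fibroblast markers moved with it in the same fit, with 8 of 8 above 0. Of these, 7 had an unadjusted p below 0.05 (9.41% of all genes in this direction). Dpt was called (0.76, edgeR adjusted p = 0.0273), where 0.166% of all genes were called in either direction. Of 6 activated fibroblast markers, 5 were above 0, the exception being Acta2 (-0.98), and 3 were called (0.166% of all genes). The called ones were Col3a1 (1.76), Col1a1 (1.47) and Cthrc1 (3.14), with edgeR adjusted p of 0.0141, 0.0345 and 0.0338. The part of both marker lists in the Fn1 difference was not tested. The Fn1 difference rests on AAV labels that read opposite to the column names of that table. With those labels exchanged the difference would be -0.17 (SE 0.19), and no difference would be called. No library was an outlier in the 20 groups of 4 that were tested for one, all of the knockout experiment. The AAV groups, with 3 libraries each, were not tested for outliers.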

How the results depend on the processing

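Genes called in the knockout experiment numbered 208 with DESeq2, 2 without a filter, 8 in replicates 3 and 4 alone, and 0 to 15 with a library left out. Of the 10 genes, DESeq2 called 1 there, and leaving out a library called 0. The median log2 fold change of the 10 ran from 0.27 to 0.51 with a library left out. Fbln2 turned to -0.11 and Fbln5 to -0.0035 in replicates 3 and 4 alone. With a library left out, Fbln2 ran from -0.062 to 0.20. It was below 0 without replicate 1 of Atf3+/+FS6KD (-0.062) and without replicate 3 of Atf3-/-FS6KD (-0.059). In the AAV experiment, genes called numbered 308 with DESeq2, 304 without a filter, 95 with library size alone, 20 with the replicate block, and 1 to 285 with a library left out. Of the 10 genes, DESeq2 called 9, library size alone 4, no filter 10, and leaving out a library 0 to 10, with medians from -0.82 to -0.50. For the difference of the experiments, genes called numbered 669 with DESeq2, 51 with limma-trend, 205 with library size alone, 61 without a filter, 43 with copies summed, 54 with the replicate block, and 0 to 168 with a library left out. Of the 10, these were 8 with DESeq2, 4 with library size alone, 2 without a filter, 2 with the replicate block and 0 to 3 with a library left out. Library size alone shifted the median of all genes to 0.11 in this fit, and all 10 stayed above it. An alternative added after seeing the data exchanged the AAV labels. It left 0 genes and 0 of the 10 called, and the differences turned to -0.17 for Fn1, -0.35 for Eln, -0.39 for Fbn1, -0.16 for Fbln1, -0.34 for Fbln2, -0.11 for Fbln5, -0.57 for Mfap4, -0.30 for Mfap5, -0.16 for Emilin1 and -0.21 for Efemp2. The cause of the other changes was not tested. Where a library was left out, its group kept at least 2.

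The labels do not say that replicate numbers pair the libraries, and the main fits held no block. Deviations of same-numbered libraries correlated at 0.0064 to 0.145 in the knockout and -0.00037 to 0.151 in the AAV experiment. Those of differently numbered libraries correlated at -0.244 to 0.190 and -0.178 to 0.0894. The ranges overlapped, so they did not settle whether the numbers pair libraries. With the numbers as a block, 2 of the 10 were called in the AAV experiment, Mfap4 and Fbln1 (edgeR adjusted p = 0.0220 and 0.0478), and Fn1 was at 0.0800. In the knockout experiment the block left 0 called among all genes, with a median of 0.38 for the 10. With it, 7 of the 10 were at an unadjusted p below 0.05 in edgeR, against 3 without it. Of all 15592 genes, 1087 were higher at this threshold with the block and 844 without it. Counting error was greatest for Efemp2, which had 317 counts in its lowest library.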
